A study of Canis lupus familiaris with 33 samples.

Results

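The genes described here are the core switches of the p53 and RB cell-cycle checkpoints: CDKN2A, CDKN2B, RB1, CDKN1A, MDM2, CCND1, CDK4, CDK6 and CCNE1. They were chosen by name, as the rows of the TMM-normalized expression table that carry these 9 gene symbols. A symbol in the table identified 7 of them, and CDKN2B was found through its Entrez gene number in a row without a symbol, so 8 genes had values among the 25096 features of the table. CDKN2A was not analysed here.

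Expression was measured by RNA sequencing in 29 invasive urothelial carcinomas (iUC) of dogs and in 4 samples of normal canine bladder mucosa. The tumors were high grade, came from dogs that had received no prior treatment, and were collected as cystoscopic biopsies, with 1 tumor from each dog. The normal samples, A to D, were the urothelial layer separated by fine dissection from bladders of dogs euthanized for other conditions. Tumors keep the names given in the labels (tumor 2, tumor 20, tumor Da6), and all libraries were sequenced in 1 batch. Each value is a log2 TMM-normalized expression level minus the median of that gene over the 33 samples, so that 0 is the gene's own middle value, a difference of 1 is 2-fold, and levels of different genes cannot be set side by side.

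The RB protein holds the cell in G1 by binding the E2F transcription factors. Cyclin D1 (CCND1) with CDK4 or CDK6, and cyclin E1 (CCNE1) with CDK2, phosphorylate RB and release E2F, which turns on genes of DNA synthesis. The inhibitors encoded by CDKN2A, CDKN2B and CDKN1A oppose these kinases, and p53 drives CDKN1A and also MDM2, the ubiquitin ligase that in turn degrades p53. Loss of the brakes or gain of the kinases, of CCND1 or of MDM2 is well known in urothelial carcinoma of people.

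Of the 8 measured genes, 4 were at least 2-fold higher in tumors than in normal mucosa at an adjusted p of at most 0.05 (limma with Benjamini-Hochberg adjustment over 24471 features): MDM2, CDK4, CDK6 and CCNE1. Across all features tested, 10.7 percent were called higher by this rule and 45.8 percent lower, and none of the 8 genes was called lower. The count was 2, MDM2 and CDK6, in the table that the authors normalized by DESeq, and also 2 without normal D. The share of all features called was not computed for either setting. RB1 was higher by the adjusted p but under 2-fold, and with no fold threshold 5 of the 8 were higher against 22.9 percent of all features. CDKN1A, CDKN2B and CCND1 did not pass the test. The median log2 fold change was 0.97 over the 8 genes, -0.84 over all features tested, and -0.01 over features whose median lay above the lowest value of their row. None of the 8 genes had samples tied at its lowest value.

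Markers of cell types differed between the 2 sample types that every tumor-to-normal value here compares. Of 8 smooth muscle markers tested, 8 were lower in tumors, with a mean marker level of 4.75 to 6.82 in the normals and -1.11 to 3.63 in the tumors, and 3 of 3 nerve and Schwann cell markers were also lower. Of all features, 45.8 percent were called lower and 10.7 percent higher. Of 7 fibroblast markers 5 were lower and 1, PDGFRA, was higher (1.62), and of 8 leukocyte markers 2 were lower and 1 higher. The 4 endothelial markers, with log2 fold changes from -0.78 to 0.09, were not called. In the table normalized by DESeq, 6 fibroblast markers were lower, as was 1 endothelial marker, TEK (-1.08, limma adjusted p = 0.0333). Of 11 urothelial markers, 7 were higher and 1 lower, against 3 and 1 in the table normalized by DESeq. Features at the lowest value numbered 755 to 1019 in each normal and 3699 to 8175 in each tumor. The part of these differences in the values of the checkpoint genes was not tested, and in bulk tissue fewer cells of a type and less RNA per cell cannot be told apart.

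**Figure D1:**
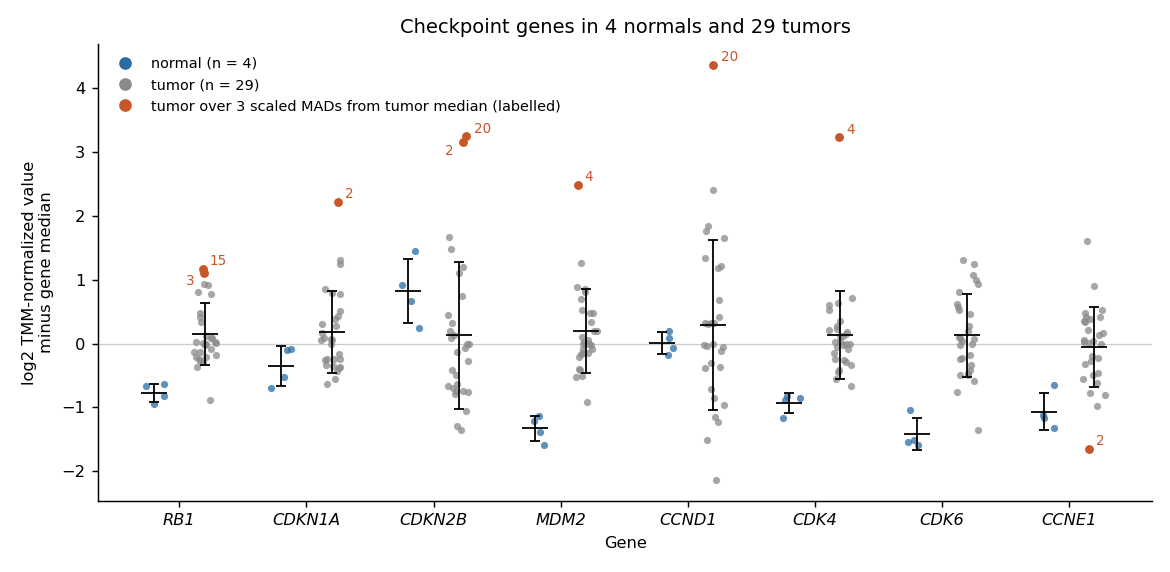
Log2 TMM-normalized value minus the gene median (vertical axis) of the 8 measured checkpoint genes in 4 normal samples (blue) and 29 tumors (gray), with black bars for mean and SD. Orange points with the tumor's name lie more than 3 scaled median absolute deviations from the tumor median. MDM2 and CDK4 are higher in 29 of 29 tumors than in any normal sample, and CCND1 and CDKN2B spread the most among tumors.

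RB1 (ENSCAFG00000004436, chromosome 22) encodes the pocket protein at the center of the checkpoint. Its log2 value was -0.95 in normal A, -0.64 in B, -0.67 in C and -0.82 in D, and in tumors it ran from -0.88 (tumor Ja) through a median of 0.01 to 1.17 (tumor 15). Except for tumor Ja, all tumors lay above every normal sample (28 of 29). In log2 terms the fold change was 0.92 (SE 0.25, 95% interval 0.40 to 1.43, limma adjusted p = 0.00169). This passes the adjusted p but falls short of 2-fold. Tumor Ja was the only tumor under -0.37. At the other end, tumors 15 and 3 (1.17 and 1.11) lay 3.50 and 3.32 scaled median absolute deviations (MADs) above the tumor median.

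CDKN1A (ENSCAFG00000029853, chromosome 12) encodes p21, the kinase inhibitor best known as a p53 target. Normal samples A to D had log2 values of -0.10, -0.53, -0.09 and -0.69. Tumors ranged from -0.64 to 2.22 with a median of 0.05. In the table normalized by DESeq, tumors 7_733858 (-0.73) and Sn (-0.65) were among those under the lowest normal, D (-0.44). In the TMM table the groups overlapped in 12 tumors, while 17 tumors lay above all normals and 0 below. The log2 fold change of 0.54 (SE 0.33, 95% interval -0.13 to 1.20) did not pass (limma adjusted p = 0.141), so the interval runs from a slight fall to more than a 2-fold rise. The highest value, 2.22 in tumor 2, was 3.88 scaled MADs above the tumor median.

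CDKN2B (ENSCAFG00000001680, chromosome 11) encodes p15, an inhibitor of CDK4 and CDK6 and the neighbor of CDKN2A. It was the only one of the 8 with a negative fold change. Normal samples had log2 values of 0.91, 0.67, 1.45 and 0.25 in A to D. Tumors ranged from -1.35 (tumor 16) through a median of -0.07 to 3.25 (tumor 20). Most tumors lay under the normals: 20 were below all 4 normals, 4 were above all of them and 5 overlapped. This gave a log2 fold change of -0.69 (SE 0.57, 95% interval -1.86 to 0.47), which did not pass (limma adjusted p = 0.279). The wide interval goes with the spread among tumors, whose SD of 1.15 was larger than that of 82.5 percent of features. Tumors 20 and 2 (3.25 and 3.16) stood apart, with the next tumor at 1.67. No samples were tied at the lowest value of CDKN2B, a check that cannot flag a floor reached by a single tumor. DNA copy number was not measured, and loss of the gene was not tested.

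MDM2 (ENSCAFG00000000418, chromosome 10) rose. Its log2 values were -1.39, -1.14, -1.22 and -1.59 in normals A to D, and in tumors ran from -0.91 (tumor 15) through a median of 0.02 to 2.49 (tumor 4). In the table normalized by DESeq the groups overlapped, with tumor 15 at -0.89 and normal B at -0.85. In the TMM table they did not: 29 of 29 tumors were higher than every normal, which held for 7.63 percent of all features. Tumors exceeded normals by a log2 fold change of 1.53 (SE 0.33, limma adjusted p = 0.000113). An exact two-sided permutation test over the 40920 ways to place 4 normals among the 33 samples gave p = 4.89e-05. The same exact test gave 4.89e-05 for CDK6, 0.000929 for RB1, 0.00352 for CCNE1 and 0.0176 for CDK4, and at least 0.104 for CDKN1A, CDKN2B and CCND1.

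The cyclin and kinase genes moved unequally. CCND1 (ENSCAFG00000010700, chromosome 18), the gene of cyclin D1, had log2 values of -0.07, 0.08, 0.20 and -0.18 in the normals and ran from -2.14 (tumor Sp) through 0.00 to 4.37 (tumor 20) in tumors. The normals sat in the middle of the tumors, 14 of which were above and 10 below all 4 normals. Group means gave a log2 fold change of 0.28 (SE 0.65, 95% interval -1.05 to 1.61, limma adjusted p = 0.713). CCND1 was the most variable of the 8 genes, with a tumor SD of 1.33 that exceeded that of 89.3 percent of features, against an SD of 0.17 in the normals.

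CDK4 (ENSCAFG00000000280, chromosome 10) rose, with 1 tumor far above the others. Normals had log2 values of -0.89, -0.82, -0.85 and -1.17, and tumors ran from -0.67 (tumor 10) through 0.02 to 3.23 (tumor 4), where the next tumor had 0.72. All 29 tumors were above all normals in the TMM table, though not in the table normalized by DESeq (tumor 10 at -0.63, normal A at -0.52). The log2 fold change was 1.07 (SE 0.34, limma adjusted p = 0.00668). Without tumor 4 it was 0.95, under 2-fold, at an adjusted p of 4.83e-05 in the same limma fit.

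CDK6 (ENSCAFG00000001998, chromosome 14), the other partner of D-type cyclins, rose about as much as MDM2. Its log2 values were -1.54, -1.05, -1.59 and -1.51 in the normals and ran from -1.35 (tumor Da6) through 0.07 to 1.31 (tumor 18) in tumors. In the table normalized by DESeq, tumors Da6 (-1.30) and Sp (-0.76) lay under normal B (-0.75). In the TMM table tumor Da6 was the only tumor within the range of the normals, and 28 tumors lay above it. The log2 fold change was 1.55 (SE 0.33, limma adjusted p = 8.51e-05), and no tumor lay beyond 3 scaled MADs.

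CCNE1 (ENSCAFG00000007614, chromosome 1), which acts after the D-type cyclins, rose by a smaller amount. Normals had log2 values of -1.16, -1.12, -0.65 and -1.32, and tumors ran from -1.65 (tumor 2) through 0.02 to 1.60 (tumor Da6). In 25 tumors the value was above all normals, and in tumor 2 it was below all of them. Its log2 fold change was 1.02 (SE 0.32, limma adjusted p = 0.00518). CDK4 and CCNE1 sit near the 2-fold limit and lost the call in the table normalized by DESeq, at 0.77 and 0.72, and without normal D, at 0.99 and 0.93. CCNE1 also lost it without normal A, at 0.99. All 8 fold changes were lower in the table normalized by DESeq, by a median of 0.30 on the log2 scale. Features at large were lower there too. Over features whose median lay above the lowest value, the median log2 fold change was -0.29 there and -0.01 in the TMM table.

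**Figure D2:**
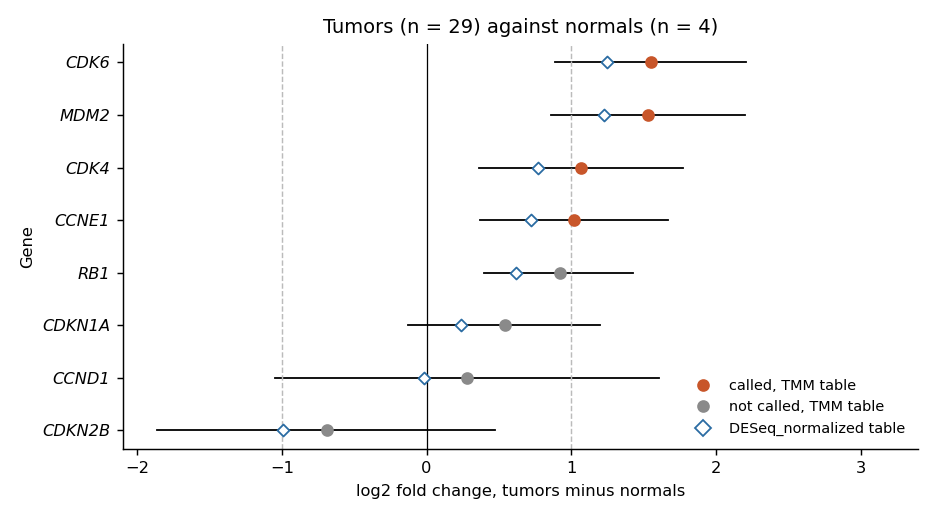
Log2 fold change of tumors (n = 29) minus normals (n = 4) on the horizontal axis for each of the 8 genes, with 95% limma intervals as lines, and circles in orange where called (2-fold or more and adjusted p at most 0.05) and gray where not. Open diamonds give the value from the DESeq-normalized table. CDK6 and MDM2 stay beyond 2-fold (dashed lines at -1 and 1) in both tables, and the diamonds of CDK4 and CCNE1 lie inside.

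The other genes of the 2 pathways were described through lists compiled for the pathway. Beside their counts, 10.7 percent of all features were called higher in the TMM table and 45.8 percent lower. The matching shares for the table normalized by DESeq were not computed. The largest share called was among E2F targets, the genes of DNA synthesis and mitosis that free E2F turns on: 21 of 23 tested were higher and 0 lower, with a median log2 fold change of 2.36. TOP2A, a topoisomerase of dividing cells (3.96, SE 0.41), TK1, a thymidine kinase (3.84, SE 0.48), and MYBL2, a transcription factor of S phase (3.83, SE 0.48), rose the most. The table normalized by DESeq gave calls for 20 of the 23.

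Among G1 cyclins, kinases and inhibitors outside the 9 genes, 6 of 8 tested were higher and 0 lower, with a median log2 fold change of 1.17. The shares of all features were 10.7 percent higher and 45.8 percent lower. CDK3 (4.15, SE 0.57), CDK2, the partner of cyclin E (1.70, SE 0.26), and CDKN3, a phosphatase of cyclin-dependent kinases (1.38, SE 0.34), were the highest of those called. In the RB and E2F family 2 of 9 were higher, E2F8 (2.31, SE 0.44) and E2F2 (1.72, SE 0.54), and the dimerization partner gene TFDP2 was lower (-1.08, SE 0.24). The DESeq table called 3 of the 8 and the same counts of 2 higher and 1 lower for the family.

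On the p53 side, 8 of 19 tested p53 targets were higher and 2 lower, with a median log2 fold change of 0.82. Across all features, 10.7 percent were called higher and 45.8 percent lower. The largest rises were AEN, an apoptosis-enhancing nuclease (1.72, SE 0.41), PMAIP1, which encodes the death protein NOXA (1.41, SE 0.54), and FDXR, a mitochondrial reductase (1.25, SE 0.25). SPATA18, a gene of mitochondrial quality control, fell (-5.23, SE 0.55), as did SESN1, a stress-response sestrin (-1.75, SE 0.29), and SPATA18 was at its lowest value in 15 tumors. The DESeq table called 1 of the 19 higher, AEN (1.43, limma adjusted p = 0.0027), and 2 lower. There FDXR (0.95, limma adjusted p = 0.00102) missed the fold threshold alone, and PMAIP1 (1.11, limma adjusted p = 0.0642) missed the adjusted p. Of 8 p53 regulators, 3 were higher in the TMM table, namely the phosphatase gene PPM1D (1.35, SE 0.38) and the checkpoint kinase genes ATR (1.12, SE 0.16) and CHEK1 (1.02, SE 0.28), and 1 in the DESeq table.

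**Figure D3:**
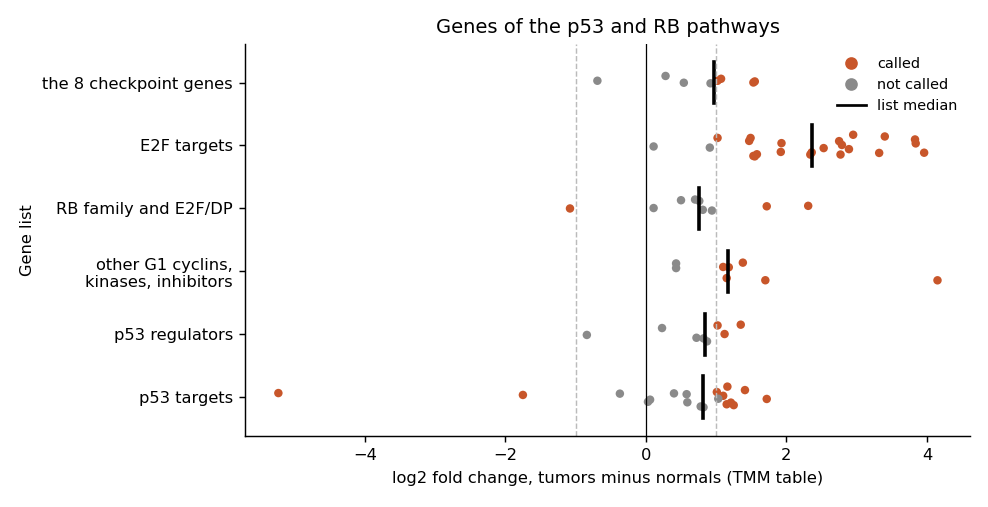
Log2 fold change of tumors minus normals in the TMM table (horizontal axis) for each tested gene of 5 pathway lists and for the 8 checkpoint genes, orange where called and gray where not, with a black bar at each list's median. The E2F targets lie farthest to the right, with 21 of 23 called and a median of 2.36, while the p53 targets spread to both sides of 0.

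Single tumors stood far from the rest in 7 of the 8 genes. A tumor was taken as standing apart where its value lay more than 3 scaled MADs from the tumor median, which gave 9 gene and tumor combinations in 5 tumors (2, 3, 4, 15 and 20), and 24 tumors had none. A tumor above the limit occurred in 6 of the 8 genes, against 19.1 percent of 14638 features without a shared lowest value, and a tumor beyond it in either direction in 7 of the 8, against 40.5 percent. With a limit of 1.5 interquartile ranges beyond the quartiles RB1 had 0 such tumors, and in the DESeq table CCNE1 had 0. Several of these values fell in the same tumors. Tumor 4 was the highest in CDK4 (8.35 scaled MADs) and in MDM2 (5.37), tumor 20 in CCND1 (4.10) and CDKN2B (3.61), and tumor 2 in CDKN1A (3.88), with the second highest CDKN2B (3.52) and the lowest CCNE1 (-3.10).

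CDK4 and MDM2 lie on the same chromosome, and the genes between them were high in the same tumor. Gene order was taken from RefSeq on the assembly UU_Cfam_GSD_1.0, which is not the CanFam3.1 build used for the reads, so order only is given. Of 33 genes of the table between CDK4 and MDM2, 31 were above their lowest value in enough tumors to be ranked. In tumor 4, 20 of these 31 had their highest value of all tumors, and 24 were at least 1 log2 unit above the tumor median, with a median of 1.51. Over 11340 genes ranked in the same way, 2.14 percent were highest in tumor 4. DNA copy number was not measured.

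Of the 10 ranked neighbors on each side of CDK4, 6 had their highest value in tumor 4 on one side and 6 on the other. This compares with 2.14 percent of all genes ranked. Among the 3 nearest genes alone, the values differed between the 2 sides. The log2 value in tumor 4 was 4.89 for CYP27B1, the vitamin D 1-alpha-hydroxylase, 2.72 for METTL1, a transfer RNA methyltransferase, and 4.30 for AVIL, an actin-binding protein, against tumor medians of -0.18, 0.23 and 0.08. On the other side it was lower, at 1.69 for TSPAN31, 1.53 for AGAP2, which ranked 4th of 29, and 1.35 for OS9. Beside MDM2, the nucleoporin gene NUP107 had 2.79, SLC35E3 had 2.84 and the carboxypeptidase gene CPM had 3.18, each the highest of 29. Not all genes of the stretch took part: relative to the tumor median, MON2 was at 0.08 and USP15 at -0.32 (25th of 29) in tumor 4. Genes with overlapping ends could share reads, since use of strand in the counting is not given in the sources used here.

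Other checkpoint genes of tumor 4 lay near the middle of the tumors or below. RB1 had 0.03 (13th of 29), CCND1 0.32 (11th), CDKN2B -0.07 (15th) and CCNE1 -0.32 (21st). CDKN1A was low, at -0.38 and 26th from the top, while the mean standardized level of 18 p53 targets ranked 12th.

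A narrower stretch around CCND1 was high in tumor 20. Of its 20 ranked neighbors, 10 on each side, 6 had their highest value in tumor 20, against 5.18 percent of all genes ranked. They included TPCN2, an endolysosomal channel (4.42 above the tumor median), CTTN, the actin regulator cortactin (3.53), MRPL21, a mitochondrial ribosomal protein (3.20), FADD, the death-domain adaptor (2.77), and PPFIA1, a liprin (2.76). ANO1, a chloride channel gene within the stretch, did not share the pattern and was 1.68 below the tumor median, 27th of 29. The same tumor had the highest CDKN2B, but 0 of the 20 ranked neighbors of CDKN2B had their highest value there, and MDM2 (-0.52), CCNE1 (-0.98) and the p53 target score were 28th, 28th and 29th.

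Another run of neighbors, beside CDK6, was singled out after its values were seen, since CDK6 had no tumor beyond the limit. In tumor 18, which had the highest CDK6 (1.31), 7 of the 10 ranked neighbors on one side were also at their highest, among them CYP51A1, a sterol demethylase (1.79 above the tumor median), and KRIT1 (1.29). On the other side 0 of 10 were, and SAMD9L next to CDK6 was 0.19 below the tumor median. Tumor 18 was the highest tumor for 9.16 percent of all genes ranked, and it also had the highest E2F target score.

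For RB1 in tumor 15 and CDKN1A in tumor 2, 0 of 20 ranked neighbors shared the peak. For CCNE1 in tumor Da6, 1 of 13 did, the adjacent gene URI1, at 0.42. Tumor Da6 was within the outlier limit in CCNE1, at 2.92 scaled MADs. Of all genes ranked, 5.47 percent were highest in tumor 15, 4.97 percent in tumor 2 and 6.05 percent in tumor Da6.

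**Figure D4:**
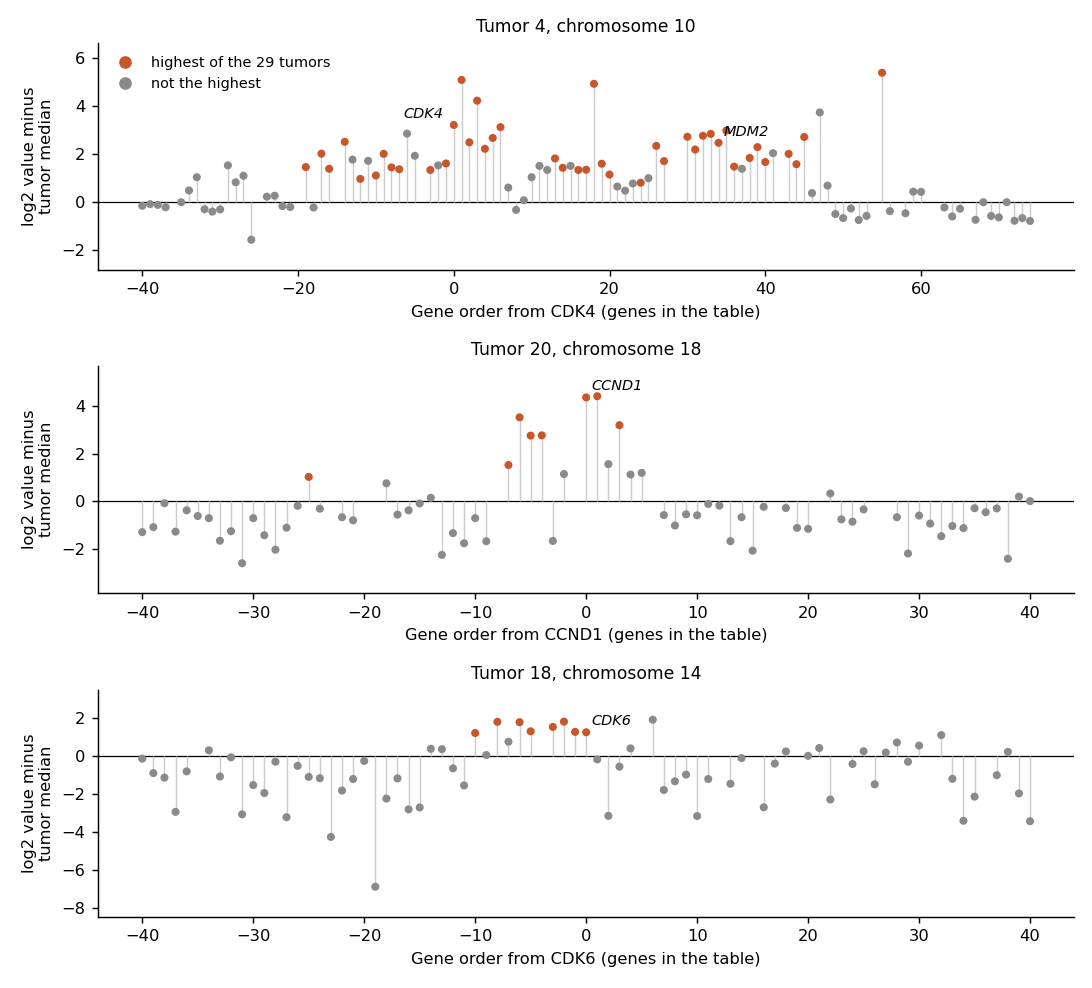
Log2 value minus the tumor median in a single tumor (vertical axis) along the order of genes on the chromosome (horizontal axis, steps in genes), for chromosome 10 in tumor 4, around CCND1 in tumor 20 and around CDK6 in tumor 18. Orange marks genes whose highest value of the 29 tumors is in that tumor: 20 of the 31 between CDK4 and MDM2, 6 of the 20 neighbors nearest to CCND1 and 7 of the 20 nearest to CDK6.

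Across the 29 tumors, 1 of the 28 pairs of checkpoint genes was related past an adjusted p of 0.05. CDKN2B and CCNE1 ran in opposite directions, with Pearson r = -0.721 (permutation p = 1e-05, the smallest that 100000 resamples can give, adjusted p = 0.00028) and Spearman rho = -0.626 (adjusted p = 0.0137). Of the 14 tumors above the median of CDKN2B, 5 were above the median of CCNE1, against 9 of the 14 below it. Tumors 20 and 2, the highest in CDKN2B, were the 2 lowest in CCNE1. Without these 2 tumors r was -0.561 at an adjusted p of 0.0658 (permutation test), so the call rests on them while the direction does not.

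**Figure D5:**
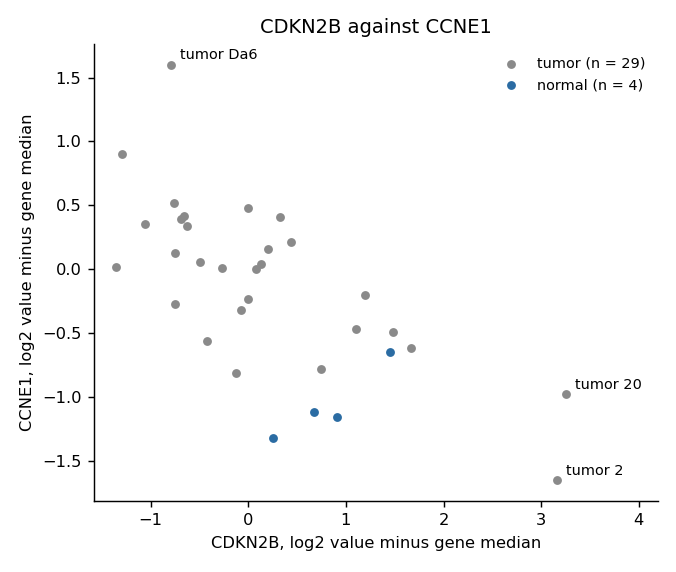
CDKN2B (horizontal axis) against CCNE1 (vertical axis), both as log2 value minus the gene median, in 29 tumors (gray) and 4 normals (blue). Tumors fall from upper left to lower right (r = -0.721, and -0.561 without tumors 20 and 2, which lie at the lower right).

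The other pairs of interest did not pass. MDM2 and CDK4 had r = 0.603 (permutation p = 0.0131, adjusted p = 0.123) but rho = 0.218, and r was 0.0624 without tumor 4 and 0.17 with 2 extreme MDM2 values left out, so the relation rests on tumor 4. CDKN1A and MDM2, which share p53 as an activator, had r = -0.0325 (permutation, adjusted p = 0.93). RB1 had r = 0.314 with CCND1 (adjusted p = 0.341) and -0.0136 with CCNE1 (adjusted p = 0.944), both by permutation.

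The 8 genes were also compared with 4 scores over the tumors, each the mean standardized level of a list (18 p53 targets, 23 E2F targets, 8 smooth muscle markers and 8 leukocyte markers), which made 32 relations. By Pearson's r, 0 of the 32 passed. The closest for the cell cycle was CCNE1 with E2F targets (r = 0.504, permutation p = 0.00654, adjusted p = 0.105), where r was 0.297 without tumor 2. By rank, 1 relation passed: RB1 was lower where leukocyte markers were higher (rho = -0.643, adjusted p = 0.008, r = -0.516, adjusted p = 0.105, and r = -0.465 with tumors 15 and 3 left out). Tumor 2, with the highest CDKN1A and the lowest CCNE1, also had the lowest E2F target score of the 29.

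The genes most like each checkpoint gene were ranked by Pearson's r over the 29 tumors among 11339 other genes, as a description. For MDM2 they were CAND1 (0.897), NUP107 (0.879) and SOCS5 (0.871), and for CDK4 they were PIP4K2C (0.842), TSPAN31 (0.825) and CNOT2 (0.823). All 6 lie on chromosome 10, as MDM2 and CDK4 do, and all 6 had their highest value in tumor 4. Without tumor 4, r ranged from 0.75 to 0.802 for the 3 genes like MDM2 and from 0.538 to 0.733 for those like CDK4. CDKN2B was most like SESN3 (0.825), PLOD2 (0.787) and GM2A (0.777), and CCND1 most like HES4 (0.840), LGALS3 (0.743) and HMCES (0.701). For CCNE1 the list was GPR180 (0.758), the E2F family gene E2F2 (0.746) and PRELID3B (0.708). RB1 was closest to KANSL1 (0.780), its chromosome 22 neighbor ITM2B (0.743) and LIG3 (0.730). CDKN1A was closest to BCAM (0.712), the early-response gene JUN (0.711) and CNN2 (0.710), and CDK6 had the weakest likenesses, led by TSNARE1 (0.666), GPT (0.660) and CHRNA5 (0.610), all on chromosome 13.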

How the data were processed

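Per the labels, RNA was depleted of ribosomal RNA, libraries were made with ScriptSeq v2, and paired-end reads of 150 bases were generated on a HiSeq 4000. The authors aligned the reads to CanFam3.1 with COBWeb in Strand NGS v3.1, quantified annotated genes, and made one table by TMM and another by DESeq normalization. The deposited tables hold log2 values in which every gene has a median of 0 across the 33 samples. Both the centering and the floor, a lowest value shared by several samples, were read from the values. They are not counts, the depth behind each value is unknown, and no count test was run. An incomplete last line of each table was left out.

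Tumors (n = 29) were compared with normals (n = 4) on the TMM table with limma 3.58.1 (R 4.3.3), with the variance prior following each feature's mean value, which after the centering is not an abundance, and Benjamini-Hochberg adjustment over the 24471 features above their shared lowest value in at least 4 samples or without one. A call required an adjusted p of at most 0.05 and 2-fold or more. limma replaced the authors' count-based tests because of the unit, and the TMM table alone gave the calls, where the authors pooled the genes from both normalizations. p-values measure the spread between dogs, since each sample is 1 animal as far as the sources say.

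Correlations used 100000 permutations over tumors. Two-sided tests were used throughout. The text names all members, up to 3 rises and 3 falls per pathway list, the 3 most alike genes, and neighbors of members with an outlying tumor. List genes that matched no row by symbol or Entrez number (E2F1, E2F3, CCNE2, CDKN1B, MDM4 and others) were not analysed here, and 11790 features stayed unnamed. Members, lists and tests were chosen with earlier results of these data known. Alternatives were the table that the authors normalized by DESeq, other filters, variance models and scalings, each normal left out, Spearman's rho, and regression on the share of features at the lowest value. Leaving out outlying tumors and differences of medians were added after seeing the data. Gene order came from RefSeq.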

Additional observations from a re-analysis of the deposited data

Results flagged for a closer look

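CDK6 in the 4 normal samples was picked out because normal B (-1.05) lay apart from the other three (-1.51 to -1.59), with a gap that was 0.843 of the whole range of the group, above the 95% critical value of Dixon's test for 4 samples. Chance picks out about 1 in 20 such groups, and 8 genes were examined. CDK6 stayed called without normal B.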

How the results depend on the processing

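The count of checkpoint genes called higher was 4, and it was 2 (MDM2 and CDK6) in the DESeq table and between 2 and 4 when 1 normal or 1 outlying tumor was left out, 2 of them without normal D. CDK4 was lost in the DESeq table (0.77), without normal D (0.99) and without tumor 4 (0.95), and CCNE1 in the DESeq table (0.72), without normal A (0.99) and without normal D (0.93). The sign of CCND1 turned in the DESeq table (-0.02) and as a difference of medians (-0.01). Separation of all tumors from all normals ended in the DESeq table for MDM2 (tumor 15 at -0.89, normal B at -0.85). It also ended there for CDK4 (tumor 10 at -0.63, normal A at -0.52). The count of related gene pairs fell from 1 to 0 without the 2 farthest tumors and to 0 without outlying tumors, and the count of related scores went from 0 to 1 by Spearman's rho. Signs also turned for RB1 with CCNE1 (0.0229 with the share at the lowest value regressed out, 0.0389 without the 2 farthest tumors) and for CDKN1A with MDM2 (0.0182 by rho, 0.202 without outlying tumors). Outlying tumors went from 2 to 0 in RB1 with the interquartile limit and from 1 to 0 in CCNE1 in the DESeq table. The causes were not tested. No paired analysis was possible because tumors and normals share no replicate names.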
